A study of Mus musculus with 32 samples.

Results

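Tanycytes are elongated glial cells that line the floor and lower walls of the third ventricle, the fluid-filled cleft in the midline of the hypothalamus. Their cell bodies touch the cerebrospinal fluid and their long processes reach the median eminence, the arcuate nucleus and the ventromedial nucleus. They are known to form part of the barrier between blood, cerebrospinal fluid and the arcuate nucleus, to activate thyroid hormone, to sense nutrients and to act as neural progenitors. Their transcripts were followed here through 9 marker genes, Rax, Lhx2, Nes, Dio2, Crym, Gpr50, Scn7a, Frzb and Col23a1, of the 55401 gene identifiers in the table. The identifiers were taken by name, as those that a GRCm38 annotation pairs with these symbols, and no measured value entered that step. The symbols themselves were chosen with earlier results of these data known. Several of the genes are also used by other cells of the region, so that they mark tanycytes as a set rather than one by one.

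The values came from bulk RNA sequencing of the whole hypothalamus of 32 male C57BL/6NTac mice, 1 library per separately labelled mouse. The 4 groups were hemizygous Gpr101 knockouts fed high-fat diet (KO_HFD, 9 mice) or control diet (KO_CD, 8 mice) and their wild-type littermates fed high-fat diet (WT_HFD, 8 mice) or control diet (WT_CD, 7 mice). All mice ate chow until 7 weeks of age, when those of the high-fat groups were moved to food with 60% of its energy from fat. Age at death was 149 days in 1 KO_HFD, 5 KO_CD, 1 WT_HFD and 6 WT_CD mice and 150 days in the others, so that it largely went with diet. Gpr101 is an X-linked orphan receptor, so that a hemizygous male has no intact copy, and the labels name no restriction of the knockout to a tissue.

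Reads on genes ranged from 25.3 to 34.2 M per library (megareads), with a median of 27.7 M. The targeted gene matched the labels: Gpr101 had 1 read in total over the KO_HFD libraries and 0 reads over the KO_CD libraries, against 2471 to 3472 reads per WT_HFD library and 2605 to 3145 per WT_CD library. Neuron markers of the region were present. Of the markers of ventromedial and paraventricular neurons, 10 of 10 were measured, and of those of arcuate neurons 13 of 14, with Kiss1 too low to test. Of the markers of the thalamus, a neighbouring region, 12 of 12 were measured too, so these counts do not test the tissue label. Markers of adjoining tissue were also present and uneven between libraries. The summed normalized counts of 14 genes of the meninges ranged from 2615 to 13684 in KO_HFD, from 2314 to 11180 in KO_CD, from 2383 to 13919 in WT_HFD and from 2718 to 7597 in WT_CD.

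All 9 genes had reads in 32 of 32 libraries and passed the filter on low values, a normalized count of at least 10 in at least 7 libraries. On GRCm38, Nes lies on chromosome 3 (87971078 to 87980451, plus strand), Dio2 on chromosome 12 (90724552 to 90738438, minus), Crym on chromosome 7 (120186380 to 120202111, minus) and Gpr50 on chromosome X (71663667 to 71669257, plus). Col23a1 lies on chromosome 11 (51289920 to 51583918, plus), and chromosome 2 carries Lhx2 (38339281 to 38369733, plus), Scn7a (66673425 to 66784914, minus) and Frzb (80411970 to 80447625, minus). An exon of Rax overlaps the antisense gene Raxos1, and an exon of Dio2 overlaps the antisense gene Gm26512. The libraries were stranded but the strand setting of the counting was not given, so the levels of Rax and Dio2 may hold reads of these partners.

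The start regions of the 4 genes that varied most closely together between libraries, Col23a1, Frzb, Gpr50 and Scn7a, are shown here because the covariation described further on turns on them. Each window runs from 250 bases before to 50 bases after the RefSeq start on GRCm38.p6, at chr11:51289670-51289969 (plus) for Col23a1, chr2:80447347-80447646 (minus) for Frzb, chrX:71663417-71663716 (plus) for Gpr50 and chr2:66784861-66785160 (minus) for Scn7a. Capitals mark CAAGTG, the core that NK2 homeodomain factors such as Nkx2-1 bind.
Col23a1: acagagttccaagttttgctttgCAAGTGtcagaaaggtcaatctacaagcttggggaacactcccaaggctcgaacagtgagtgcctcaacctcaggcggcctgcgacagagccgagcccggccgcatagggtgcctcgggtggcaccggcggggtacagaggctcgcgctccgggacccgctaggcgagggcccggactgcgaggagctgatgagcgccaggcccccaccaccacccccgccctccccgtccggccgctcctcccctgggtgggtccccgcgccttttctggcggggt
Frzb: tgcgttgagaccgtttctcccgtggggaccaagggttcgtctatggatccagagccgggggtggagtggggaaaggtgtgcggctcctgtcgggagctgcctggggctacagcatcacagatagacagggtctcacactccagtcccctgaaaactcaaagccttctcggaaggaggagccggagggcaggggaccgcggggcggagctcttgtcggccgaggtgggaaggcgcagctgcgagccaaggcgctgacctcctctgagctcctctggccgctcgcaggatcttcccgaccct
Gpr50: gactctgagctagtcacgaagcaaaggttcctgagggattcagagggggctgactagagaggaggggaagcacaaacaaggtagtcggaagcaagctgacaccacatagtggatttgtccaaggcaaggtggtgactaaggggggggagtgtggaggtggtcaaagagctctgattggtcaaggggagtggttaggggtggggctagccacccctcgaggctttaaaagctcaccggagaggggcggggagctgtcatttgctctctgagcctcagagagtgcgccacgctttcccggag
Scn7a: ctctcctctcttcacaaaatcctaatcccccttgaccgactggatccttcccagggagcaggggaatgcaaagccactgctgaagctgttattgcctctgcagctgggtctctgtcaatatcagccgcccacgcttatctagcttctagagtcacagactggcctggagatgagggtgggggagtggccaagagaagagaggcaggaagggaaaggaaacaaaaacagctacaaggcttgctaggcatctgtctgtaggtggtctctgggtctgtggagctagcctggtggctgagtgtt

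Searched on both strands, CAAGTG (reverse complement CACTTG) was in 13.6% of 32851 RefSeq windows of the same 300 bases, and among the member windows only in that of Col23a1, where its first base lies at position -227 from the start. TAATTA, the palindromic core bound by LIM and paired-like homeodomain factors such as Lhx2 and Rax, was in 5.29% of the windows and in none of the member windows held in the table, which were those of Lhx2 (2 windows), Nes, Dio2, Gpr50, Col23a1, Scn7a and Frzb. The 2 motifs share no overlap. The share of G and C was 67.7% in the window of Col23a1, 64.7% in that of Frzb, 57.3% in that of Gpr50 and 54.0% in that of Scn7a.

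Per kilobase of exon, the most abundant members were 2 membrane proteins. Col23a1, a transmembrane collagen, averaged 206 ± 38.4 normalized counts per kb, and Gpr50, an orphan receptor related to the melatonin receptors, averaged 188 ± 28.3 (SD, n = 32 libraries, all groups together). Scn7a, an atypical sodium channel linked to sensing of sodium in glia, and Nes, the intermediate filament of neural progenitors and also of growing vessels, had nearly the same level, at 97.0 ± 14.7 and 96.5 ± 11.9 per kb. Frzb, a secreted antagonist of Wnt ligands, followed at 70.7 ± 9.89 per kb. Dio2, the deiodinase that converts thyroxine to the active hormone, averaged 46.6 ± 5.96, Lhx2, a LIM homeodomain factor, 44.0 ± 4.76, and Crym, a cytosolic carrier of thyroid hormone, 43.4 ± 9.79. Rax, the retina and anterior neural fold homeobox factor and the most specific of the markers, was lowest at 9.27 ± 2.75 per kb, from 22 to 104 reads per library.

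The order of these levels was the same in every library at some steps and not at others. Gpr50 lay above Scn7a, Frzb above Dio2 and Crym above Rax in 32 of 32 libraries, and Nes lay above Frzb in 31. Col23a1 lay above Gpr50 in 25 libraries. The neighbours Scn7a and Nes (15 of 32 libraries in the stated order), Dio2 and Lhx2 (20 of 32) and Lhx2 and Crym (19 of 32) did not differ beyond their spread. Within groups, the coefficient of variation between mice was 29.5% for Rax, against 14.2% from counting alone, and 22.6% for Crym against 8.41%. It was 18.8% for Col23a1 against 2.96%, 15.4% for Scn7a against 3.80% and 14.9% for Gpr50 against 4.20%. Frzb (13.8%), Dio2 (13.4%), Nes (11.6%) and Lhx2 (10.3%) varied least, and for Lhx2 counting alone would give 7.24%.

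The design asks whether loss of Gpr101, a high-fat diet, or both together changed these transcripts. None of the 9 markers changed in any of 7 comparisons by limma at an adjusted p below 0.05. Few genes passed at all: 0.00502% of the 19928 genes tested passed for genotype on high-fat diet, genotype on control diet and genotype averaged over diets, which is Gpr101 itself. For diet, 0.0351% passed in knockouts, 0.0251% in wild type and 0.336% averaged over genotypes, and for the interaction of genotype and diet 0% passed. At an unadjusted p below 0.05, limma singled out Nes for genotype on control diet, Lhx2 for genotype averaged over diets and Nes for the interaction, and no member in the other 4 comparisons. Over all genes tested, 4.37% had an unadjusted limma p at or below 0.0383 for genotype averaged over diets. At or below the limma p-values of Nes, the shares were 0.878% for genotype on control diet (0.0117) and 1.65% for the interaction (0.0267). For diet averaged over genotypes the share at or below 0.0696 was 14.1%. The same test on recovered reads with voom weights also called 0 of 9 and singled out the same 3 values. In whole tissue, fewer tanycytes and less RNA per tanycyte cannot be told apart.

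**Figure D1:**
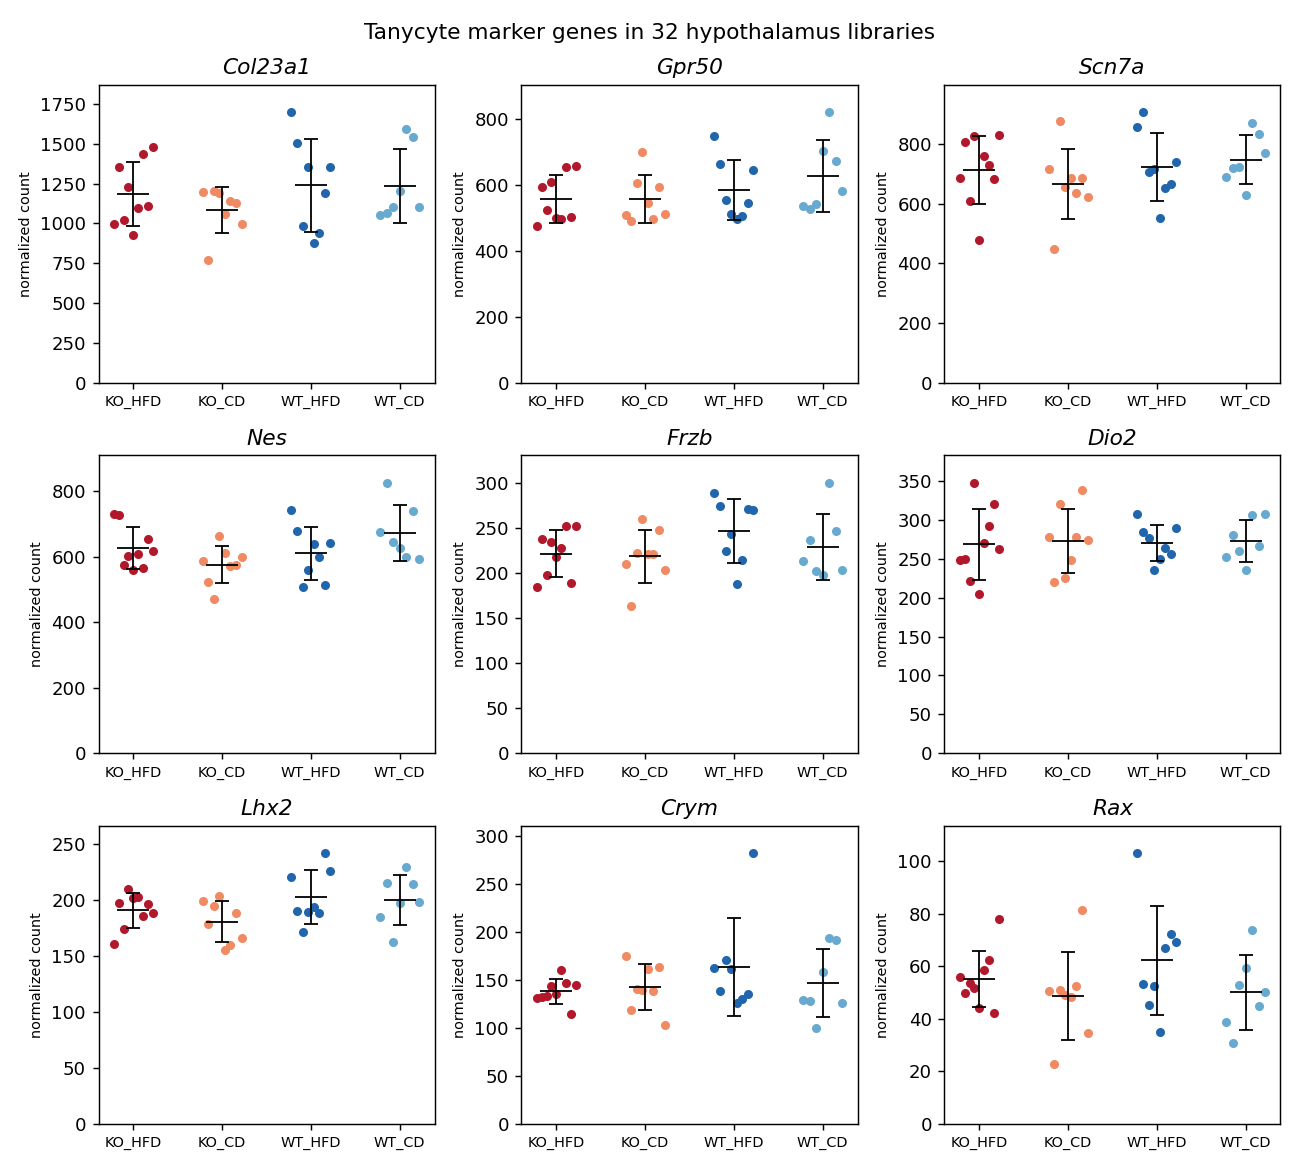
Normalized counts of the 9 tanycyte markers in each of 32 libraries. Points are mice, the long bar is the group mean and the short bars are 1 SD either side; the vertical axis starts at 0 in every panel. The 4 groups overlap in every panel, Rax spans 22.6 to 103 normalized counts, and 1 WT_HFD mouse stands at 282 for Crym.

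Rax (GRCm38 chromosome 18, 65928277 to 65939787, minus strand) is required for tanycyte identity in mice. It had a lowest, median and highest normalized count of 42.0, 53.6 and 78.1 in KO_HFD, 22.6, 49.8 and 81.3 in KO_CD, 34.9, 60.0 and 103 in WT_HFD and 30.6, 50.1 and 74.0 in WT_CD. The ranges of the 4 groups overlapped almost wholly, and the lowest mouse of all was a KO_CD mouse. The difference nearest to the threshold among the diet comparisons was that of Rax, with a log2 fold change of 0.26 (SE 0.14) for high-fat against control diet averaged over genotypes. That is a fold of 1.20 with a 95% interval of 0.985 to 1.46 (unadjusted p = 0.0696, limma adjusted p = 0.494). The values were 0.23 (SE 0.19) in knockouts and 0.29 (SE 0.20) in wild type. Without single libraries the averaged value ran between 0.19 and 0.32, and the lowest adjusted p was 0.320.

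Lhx2 is likewise required for tanycyte development in mice. It had a lowest, median and highest normalized count of 161, 197 and 209.5 in KO_HFD, 156, 183 and 204 in KO_CD, 172, 192 and 242 in WT_HFD and 162, 198 and 229 in WT_CD. The highest knockout mouse stayed below the highest wild-type mice, while the low ends were alike. Averaged over diets, knockouts differed from wild type by a log2 fold change of -0.11 (SE 0.05), a fold of 0.924 with a 95% interval of 0.857 to 0.996. The unadjusted p was 0.0383 and the limma adjusted p 0.866. The value was -0.08 (SE 0.07) on high-fat diet and -0.15 (SE 0.08) on control diet.

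Nes showed the largest difference between genotypes on control diet. Its lowest, median and highest normalized count were 559.9, 607 and 729 in KO_HFD, 472, 580.2 and 661 in KO_CD, 509, 619 and 742 in WT_HFD and 593, 643 and 826 in WT_CD. KO_CD mice were shifted to lower values than WT_CD mice, with overlap, and the 2 high-fat groups covered much the same range. On control diet the log2 fold change between knockouts and wild type was -0.22 (SE 0.08), a fold of 0.858 with a 95% interval of 0.763 to 0.964 (unadjusted p = 0.0117, limma adjusted p = 1.00). On high-fat diet it was 0.04 (SE 0.08). The test of the difference between these values, the interaction, gave 0.26 (SE 0.11, unadjusted p = 0.0267, limma adjusted p = 0.999). Leaving out 1 library at a time kept the value on control diet between -0.25 and -0.17.

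Dio2 was nearly level across the groups. It had a lowest, median and highest normalized count of 205, 263 and 348 in KO_HFD, 221, 276 and 338 in KO_CD, 236, 270.3 and 308 in WT_HFD and 236, 266 and 308 in WT_CD. The 4 medians lay close together, and knockout mice spread more widely than wild-type mice on either diet. For Dio2 the log2 fold change between genotypes averaged over diets was -0.01 (SE 0.06), a fold of 0.990 with a 95% interval of 0.906 to 1.08, and that between diets was -0.02 (SE 0.06). Crym had a lowest, median and highest normalized count of 115, 135 and 160.0 in KO_HFD, 103, 139.8 and 175 in KO_CD, 126, 149.9 and 282 in WT_HFD and 100.3, 129 and 194 in WT_CD. Apart from the single mouse at 282, the groups shared most of their range. For Crym the log2 fold change between genotypes on high-fat diet was -0.20 (SE 0.13, unadjusted p = 0.140, limma adjusted p = 0.948), and it lay between -0.25 and -0.08 when 1 library at a time was left out.

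The membrane and secreted markers Col23a1, Gpr50, Scn7a and Frzb had wide groups that overlapped throughout. Col23a1 had a lowest, median and highest normalized count of 926, 1109 and 1479.6 in KO_HFD, 773, 1134 and 1201 in KO_CD, 879, 1272 and 1699 in WT_HFD and 1055, 1101 and 1594 in WT_CD. Gpr50 had 474, 524 and 656 in KO_HFD, 489.8, 527 and 699.9 in KO_CD, 496, 549.8 and 747 in WT_HFD and 527, 582 and 820.5 in WT_CD. In both genes the highest mice of all were wild type. Scn7a had 479.6, 730.2 and 829 in KO_HFD, 448, 671 and 877 in KO_CD, 550.5, 711 and 907 in WT_HFD and 629, 725 and 869.8 in WT_CD. Frzb had 185, 228 and 253 in KO_HFD, 163, 221 and 260.1 in KO_CD, 188, 256 and 289 in WT_HFD and 198, 213 and 301 in WT_CD. The lowest mouse of Scn7a and the lowest of Frzb were in KO_CD, as were the lowest of Rax and Col23a1, and these 4 values came from 1 mouse.

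Between genotypes on high-fat diet these 4 genes had log2 fold changes of -0.05 (SE 0.13) for Col23a1, -0.06 (SE 0.10) for Gpr50, -0.03 (SE 0.11) for Scn7a and -0.15 (SE 0.09) for Frzb. On control diet the values were -0.18 (SE 0.14) for Col23a1, -0.16 (SE 0.11) for Gpr50, -0.18 (SE 0.12) for Scn7a and -0.06 (SE 0.09) for Frzb. None differed beyond the spread between mice, with limma adjusted p-values of 0.948 or more. Between diets, averaged over genotypes, the 4 values lay within 0.07 of 0 on the log2 scale.

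**Figure D2:**
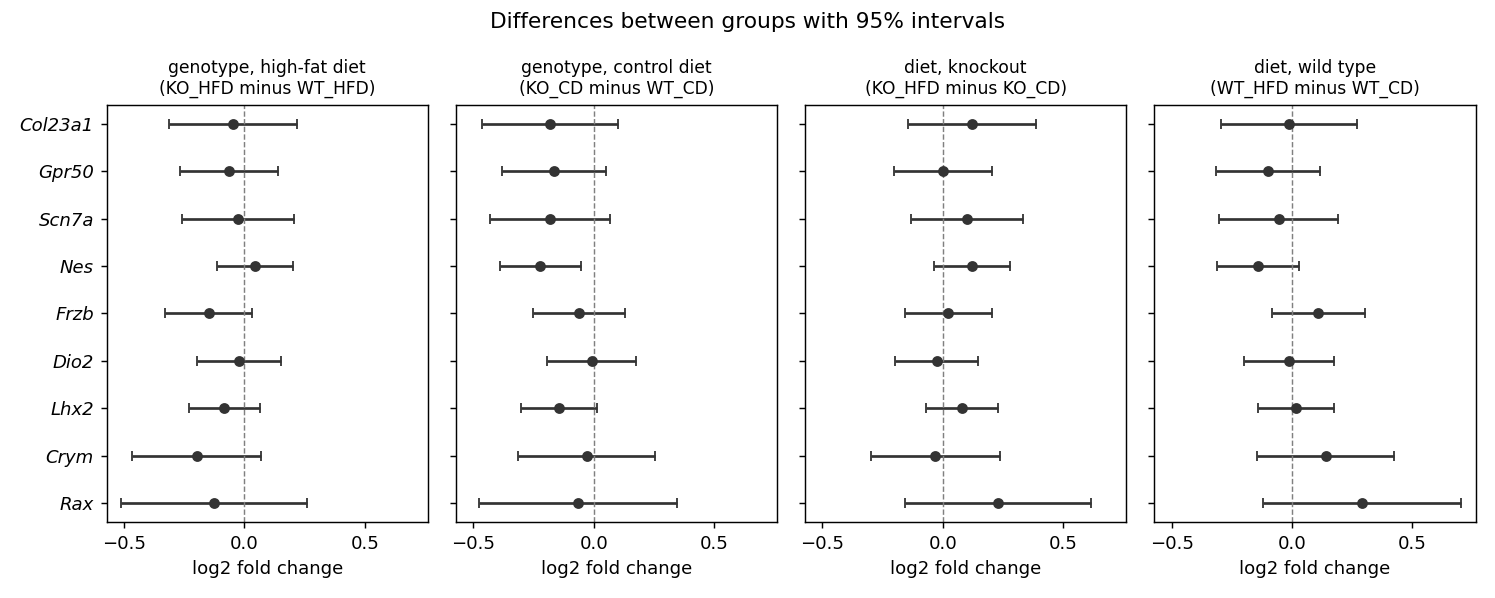
Log2 fold changes of the 9 markers in 4 comparisons, with 95% intervals from limma. A value right of the dashed line at 0 means higher in the knockout (panels of genotype) or on high-fat diet (panels of diet). The interval of Nes on control diet, a fold of 0.763 to 0.964, is the single one that does not include 0.

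Taken as values and not as calls, most of the 9 differences between genotypes lay below 0. On high-fat diet 8 of 9 log2 fold changes lay below 0 with a median of -0.06, on control diet 9 of 9 with a median of -0.15, and averaged over diets 9 of 9 with a median of -0.11 and a range of -0.11 to -0.01. Over all genes tested, 51.5% of values lay below 0 on high-fat diet and 50.2% on control diet, with medians of 0.00. The 9 markers vary together between mice, so that their shared sign is not 9 separate observations. The counts also changed with single libraries. On control diet 5 of 9 lay below 0 without WT_CD replicate 5 (median -0.10) and 6 of 9 without KO_CD replicate 2 (median -0.10), and on high-fat diet 5 of 9 without WT_HFD replicate 1 (median -0.01) and 6 of 9 without KO_HFD replicate 5 (median -0.05). Averaged over diets, 8 or 9 of 9 lay below 0 whichever library was left out. Between diets 7 of 9 values lay above 0 in knockouts (median 0.08), 4 of 9 in wild types (median -0.01) and 6 of 9 averaged over genotypes (median 0.05).

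Values of other cell lists between genotypes are given beside these, with 0 genes of any list called by limma or voom. Ependymal cells are the ciliated cells that line the rest of the ventricle. Their 14 genes, such as Foxj1, the master factor of motile cilia, and Rsph1, a radial spoke protein, were below 0 in knockouts in 11 of 14 cases on high-fat diet (median -0.06), 14 of 14 on control diet (median -0.14) and 14 of 14 averaged over diets (median -0.10). By limma 0 were called, with 5 of 14 at an unadjusted p below 0.05 averaged over diets, and voom gave the same counts there. Over all genes tested, 4.37% had an unadjusted limma p at or below 0.0383 averaged over diets. This cut is narrower than the 0.05 of the list, so the share of all genes below 0.05 is no lower. The summed normalized counts of the ependymal genes ranged from 3618 to 4729 in KO_HFD, 3752 to 4419 in KO_CD, 3758 to 4807 in WT_HFD and 3741 to 5245 in WT_CD, with none at 0 in a library. Arcuate neuron genes lay below 0 in 8 of 13 cases on high-fat diet (median -0.05), 12 of 13 on control diet (median -0.07) and 11 of 13 averaged over diets (median -0.07), with 4 of 13 at an unadjusted p below 0.05 by limma in the last. Their summed normalized counts ranged from 9793 to 12229 in KO_HFD, 9106 to 10873 in KO_CD, 9466 to 13125 in WT_HFD and 9243 to 12585 in WT_CD. Astrocyte genes lay below 0 in 13 of 14 cases on high-fat diet, 9 of 14 on control diet and 14 of 14 averaged over diets, with medians of -0.02, -0.02 and -0.03. Of the 12 oligodendrocyte genes, the myelin set, 6 of 12 lay above 0 on high-fat diet (median 0.00) and 12 of 12 on control diet (median 0.09). Averaged over diets 12 of 12 lay above 0 (median 0.05). Meningeal genes lay below 0 in 14 of 14 cases on high-fat diet (median -0.24) but above 0 in 14 of 14 on control diet (median 0.14), where the tanycyte markers lay below 0. Averaged over diets 12 of 14 meningeal genes lay below 0 (median -0.05). The part of any of these lists in the values of the markers was not tested. Genes of a list can also vary together, so that its counts are not counts of separate observations.

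Other tanycyte genes, among them Vim, Vcan, Fndc3c1, Sox2 and Adm, were read as a separate list. Of 24 listed, 22 were tested, since Sprr1a and Mia were too low, and 0 were called in any comparison by limma or voom, with at most 3 at an unadjusted p below 0.05. Their log2 fold changes between genotypes lay below 0 in 15 of 22 cases on high-fat diet (median -0.02), 15 of 22 on control diet (median -0.04) and 18 of 22 averaged over diets (median -0.03). The smallest p-values averaged over diets were those of Ppp1r1b, the dopamine- and cAMP-regulated phosphoprotein that striatal and other neurons also carry, at -0.11 (SE 0.04, unadjusted p = 0.0119, limma adjusted p = 0.848), and Rgcc, a cell cycle regulator, at -0.12 (SE 0.06, unadjusted p = 0.0385, limma adjusted p = 0.866). Single genes ran from -0.36 to 0.07 on high-fat diet and from -0.64 to 0.16 on control diet. The summed normalized counts of the list ranged from 24192 to 27180 in KO_HFD and from 23890 to 27119 in KO_CD. They ranged from 24340 to 27263 in WT_HFD and from 24881 to 26788 in WT_CD. Such a sum follows its most abundant genes and can hide changes in the others. KO_CD replicate 2 had the lowest sum, 23890, while the genes of the list averaged -0.30 on the log2 scale in it.

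The genes that surround Dio2 and Crym in thyroid hormone handling did not pass either. They comprise transporters such as Slco1c1, the receptors Thra and Thrb, the degrading enzyme of the releasing hormone Trhde, and responsive genes such as Hr and Klf9. Of 18 listed, 16 were tested, Dio1 and Dio3 being too low, and 0 were called in any of the 7 comparisons by limma or voom, with at most 3 at an unadjusted p below 0.05. Of the 16 differences between genotypes averaged over diets, 9 lay below 0, with a median of -0.01. Hr, a corepressor induced by thyroid hormone, stood at -0.12 (SE 0.04, unadjusted p = 0.00598, limma adjusted p = 0.816), and Trhr, a receptor of the releasing hormone, at 0.13 (SE 0.05, unadjusted p = 0.00793, limma adjusted p = 0.838). For diet averaged over genotypes 11 of 16 lay below 0, with a median of -0.02 and Hr again at -0.12 (SE 0.04, limma adjusted p = 0.269).

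The clearest property of the markers was that most of them varied together between mice of the same group. After the mean of its own group was taken from each library, 35 of the 36 pairs of markers had a Pearson r above 0 over the 32 libraries. By a permutation test within groups, adjusted by the Benjamini-Hochberg method over the 36 pairs, 18 pairs passed by Pearson's r, 19 by Spearman's rho and 17 by both. All 18 had a positive r. The test asks whether a pair varies together, not whether it does so more closely than other genes do. Ranked by r among 15398 named genes, the closest other marker came at 1 for Dio2 and Frzb and 5 for Scn7a. It came at 6 for Col23a1, 16 for Rax, 18 for Gpr50, 35 for Lhx2, 80 for Crym and 2675 for Nes. For Lhx2 and Crym many genes outside the set were thus closer than any other marker. Within high-fat-diet libraries 9 pairs passed, within control-diet libraries 8, within 150-day mice 7 and within the 13 mice of 149 days 0, where the lowest adjusted p was 0.0916. The libraries differed in depth and in markers of adjoining tissue, and the parts of depth, dissection and composition were not separated from each other.

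**Figure D3:**
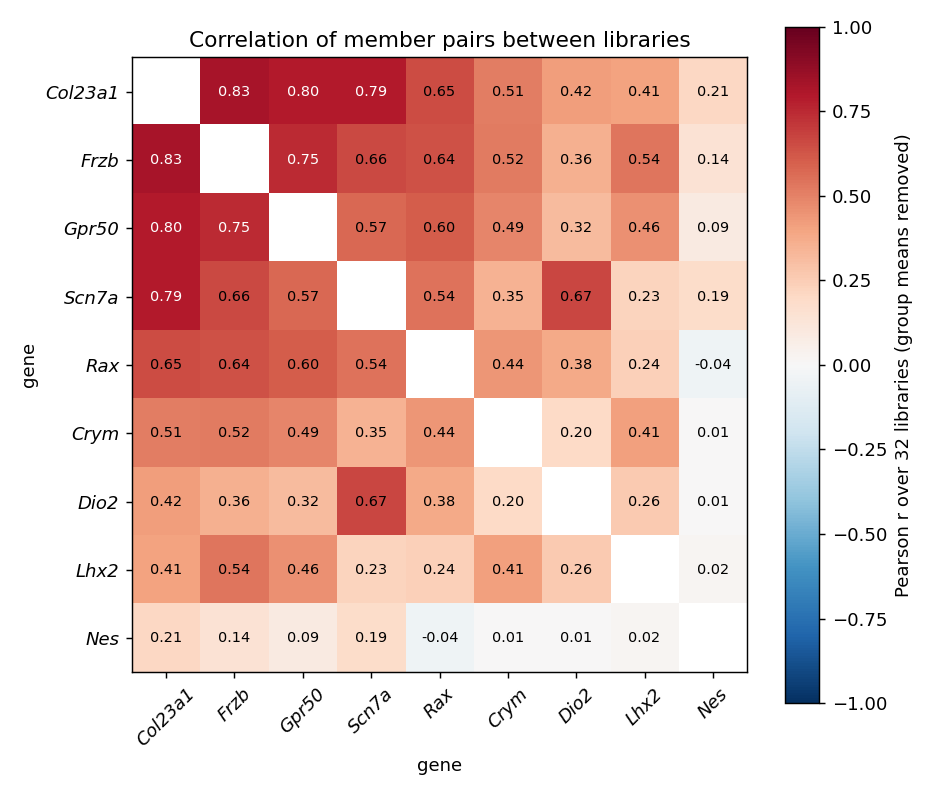
Pearson r of every pair of the 9 markers over 32 libraries, after removal of the mean of each group. Red is positive and blue negative. Col23a1, Frzb, Gpr50 and Scn7a form a block between 0.57 and 0.83, Rax joins it at 0.54 to 0.65, and the row of Nes lies between -0.04 and 0.21.

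The closest pair was Col23a1 and Frzb, with r = 0.83 and rho = 0.80 (permutation p = 1e-05 for each, the smallest that 100000 permutations can give, adjusted p = 9.00e-05 and 0.000180). Gpr50 and Col23a1 had r = 0.80 and rho = 0.77 (permutation p = 1e-05 and 2.00e-05), and Col23a1 and Scn7a r = 0.79 and rho = 0.79 (permutation p = 1e-05 for each). Mice with much Col23a1 for their group tended to have much Frzb, Gpr50 and Scn7a. Without the 2 libraries farthest from the median of the first gene, the 3 values of r were 0.79, 0.74 and 0.75. All 6 pairs among Col23a1, Frzb, Gpr50 and Scn7a passed, and their r lay between 0.42 and 0.86 within each diet and within each age taken alone.

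Rax went with the same genes. Its r was 0.65 with Col23a1 (rho = 0.55, adjusted p = 0.000960 for r and 0.00879 for rho), 0.64 with Frzb (rho = 0.52, adjusted p = 0.00202 and 0.0105) and 0.60 with Gpr50 (rho = 0.55, adjusted p = 0.00228 and 0.00879), all by permutation. These 3 values lay between 0.47 and 0.58 without the 2 libraries farthest from the median of Rax, which were KO_CD replicate 2 and WT_HFD replicate 5, and between 0.50 and 0.78 within single diets and ages. With Scn7a, Rax had r = 0.54 (adjusted p = 0.00900) but rho = 0.39 (adjusted p = 0.0618). Without those 2 libraries r was 0.33, so the size of this relation depended in part on them. Within single diets and ages, each of which holds 1 of the 2 libraries, r lay between 0.41 and 0.66. Rax and Crym had r = 0.44 (adjusted p = 0.0492) and rho = 0.49 (adjusted p = 0.0197), and without those libraries r was 0.37 (adjusted p = 0.127).

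The closest partner of Dio2 was Scn7a, at r = 0.67 and rho = 0.61 (permutation p = 5.00e-05 and 0.000440, adjusted p = 0.000360 and 0.00226), and at r of 0.63 to 0.84 within single diets and ages. With Col23a1 its r was 0.42 (adjusted p = 0.0300), which no longer passed without the 2 libraries farthest from the median of Dio2 (r = 0.38, adjusted p = 0.0610). With Crym, the other thyroid hormone gene, Dio2 had r = 0.20 (adjusted p = 0.295). Crym itself varied with Frzb (r = 0.52, adjusted p = 0.0143), Col23a1 (r = 0.51, adjusted p = 0.0162) and Gpr50 (r = 0.49, adjusted p = 0.0237). Lhx2 passed with Frzb (r = 0.54, adjusted p = 0.0108) and Gpr50 (r = 0.46, adjusted p = 0.0315).

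Nes stood outside the set. Its 8 pairs had r between -0.04 and 0.21 with a median of 0.05, and 0 of 8 passed by either coefficient, whereas the other 28 pairs had a median r of 0.50 and 18 of them passed. Nes and Rax, both used as markers of the same cells, had r = -0.04 (adjusted p = 0.906). The difference between Nes and the other markers in this respect was not itself tested.

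Some libraries lay low or high in most markers at once. KO_CD replicate 2 was below the mean of its group in 9 of 9 markers and lowest of the group in 6, with a mean deviation of -0.36 on the log2 scale. In the same library the other tanycyte genes averaged -0.30, ependymal genes -0.08, arcuate genes -0.16, thalamic genes -0.37, meningeal genes -0.56 and pituitary genes -1.49. WT_HFD replicate 5 was lowest of its group in 6 markers, with a mean of -0.29. Its other tanycyte genes averaged -0.15, ependymal genes -0.09, arcuate genes -0.25, thalamic genes 0.35, meningeal genes -1.20 and pituitary genes -1.60. At the other end, WT_CD replicate 5 was highest of its group in 7 markers, with a mean of 0.30. Its other tanycyte genes averaged 0.08, ependymal genes 0.01, arcuate genes 0.24, thalamic genes -0.23, meningeal genes -0.25 and pituitary genes -0.71. WT_HFD replicate 1 was above the mean in 9 of 9 and highest in 6, with a mean of 0.31. Its other tanycyte genes averaged 0.10, ependymal genes 0.18, arcuate genes 0.16, thalamic genes -0.19, meningeal genes 1.20 and pituitary genes 0.05. The pituitary means include low genes, since Gh, Prl and Cga were tested although each had 0 reads in a library. Summed normalized counts of all 10 pituitary genes ranged from 735 (KO_CD replicate 4) to 1153 in KO_CD. In WT_HFD they ranged from 716 (replicate 3) to 1293. The pituitary log2 means are therefore no measure of the amount of pituitary tissue.

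**Figure D4:**
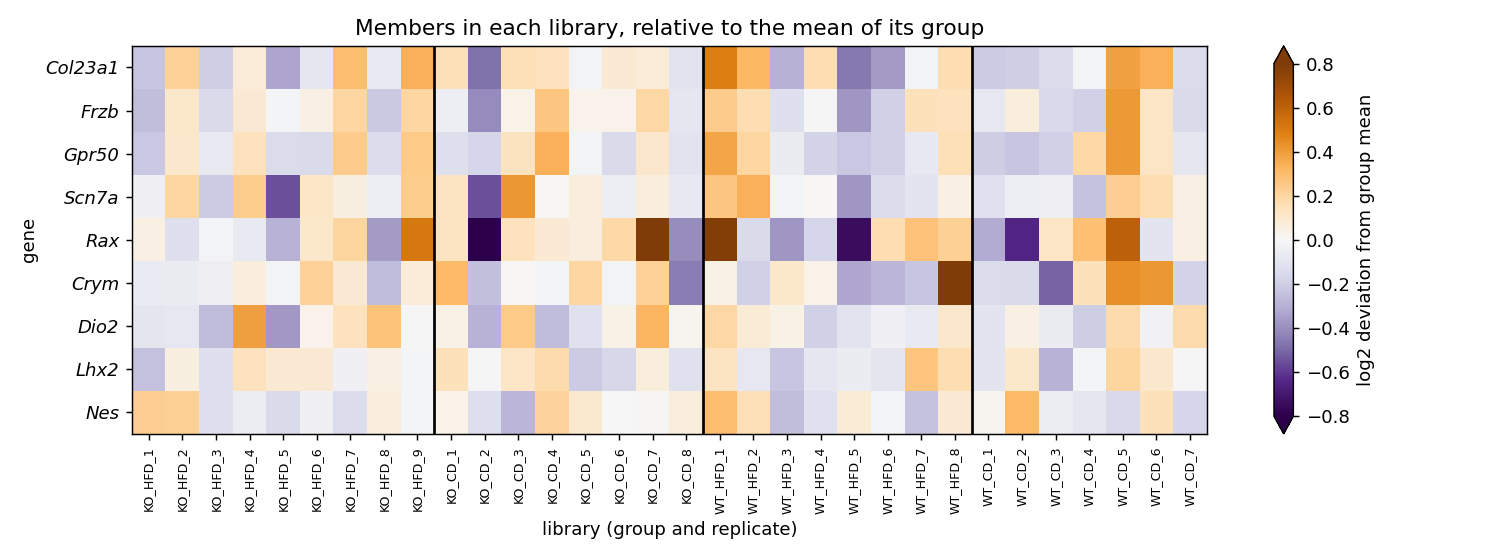
Deviation of each marker from the mean of its group, in log2 units, in all 32 libraries; black lines part the 4 groups and the colours stop at 0.8 in either direction. Columns tend to be of 1 colour: KO_CD replicate 2 is below its group mean in 9 of 9 markers and WT_HFD replicate 1 above in 9 of 9.

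The genes most like each marker, by Pearson r of the same deviations among 15398 tested genes with a full symbol, named different neighbourhoods. This ranking is a description over 32 libraries, between which dissection and depth can differ, and has no test. For Col23a1 they were Antxr1, a cell surface receptor for collagens and anthrax toxin (r = 0.91), Fzd5, a Wnt receptor (0.88), and Pbxip1 (0.84). For Scn7a they were Antxr1 (0.81), Fndc3c1, itself a tanycyte gene (0.81), and Sulf1, an extracellular sulfatase (0.81). For Frzb they were Col23a1 (0.83), Tbx3, a factor of arcuate neurons (0.82), and Cited1 (0.80). For Rax they were Vgll3 (0.75), Fzd5 (0.73) and Gpc4, a glypican (0.72). Fzd5 was among the 10 nearest genes of 4 markers, Rax, Col23a1, Scn7a and Frzb.

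The nearest genes of Gpr50 were Hdc, which makes histamine in neurons of the tuberomammillary nucleus (r = 0.85), Sfta3-ps (0.85) and Asb4, a gene of arcuate neurons (0.85), with Nkx2-1, the factor of the ventral hypothalamus, at rank 4 (0.85). For Dio2 they were Scn7a (0.67), Plce1 (0.66) and Irf9 (0.64), and the tanycyte genes Fgf10 and Adm came at ranks 7 and 8 (0.61 each). For Crym they were Aldh3b1 (0.70), Kcnj4 (0.66) and Cartpt, the feeding-related peptide precursor (0.65). For Lhx2 they were Adam10 (0.71), Mbnl2 (0.65) and Fam107b (0.65). For Nes they were Myo1c (0.79), Plxnd1, a semaphorin receptor of endothelium (0.75), and Epha2 (0.68), with the smooth muscle genes Myh11 and Myl9 at ranks 4 and 5 (0.67 and 0.66).

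The members were also set beside lists of marker genes of other cells and regions. Genes of arcuate neurons had a median r of 0.52 with Frzb, 0.47 with Gpr50, 0.44 with Col23a1 and 0.43 with Rax, where the median over all genes was 0.01 for each of these. Ependymal genes had a median r of 0.41 with Rax, 0.41 with Col23a1 and 0.40 with Gpr50, but -0.02 with Dio2 and 0.04 with Nes. Genes of the thalamus, which lies above the hypothalamus, had a median r of -0.55 with Gpr50 and -0.37 with Frzb, and oligodendrocyte genes of -0.56 with Gpr50 and -0.53 with Col23a1. Frzb, Gpr50, Col23a1 and Rax tended to be high in libraries in which arcuate genes were high and myelin genes low. The other tanycyte genes had medians from 0.34 with Col23a1 to 0.10 with Nes. These lay below the arcuate and ependymal medians for Rax, Gpr50, Col23a1, Frzb and Crym, between them for Lhx2, Dio2 and Scn7a, and above both for Nes.

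Nes went with genes of tissue at the surface of the brain. Col23a1 and Scn7a varied with these about as much as with arcuate genes. Meningeal genes had a median r of 0.43 with Nes, 0.43 with Col23a1 and 0.39 with Scn7a, against 0.07 with Gpr50 and 0.10 with Frzb. Endothelial genes had a median r of 0.28 with Nes and at most 0.17 with any other marker. Whether the amount of ventricular wall, of surface tissue or of neighbouring nuclei in each dissected block set these relations was not tested.

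**Figure D5:**
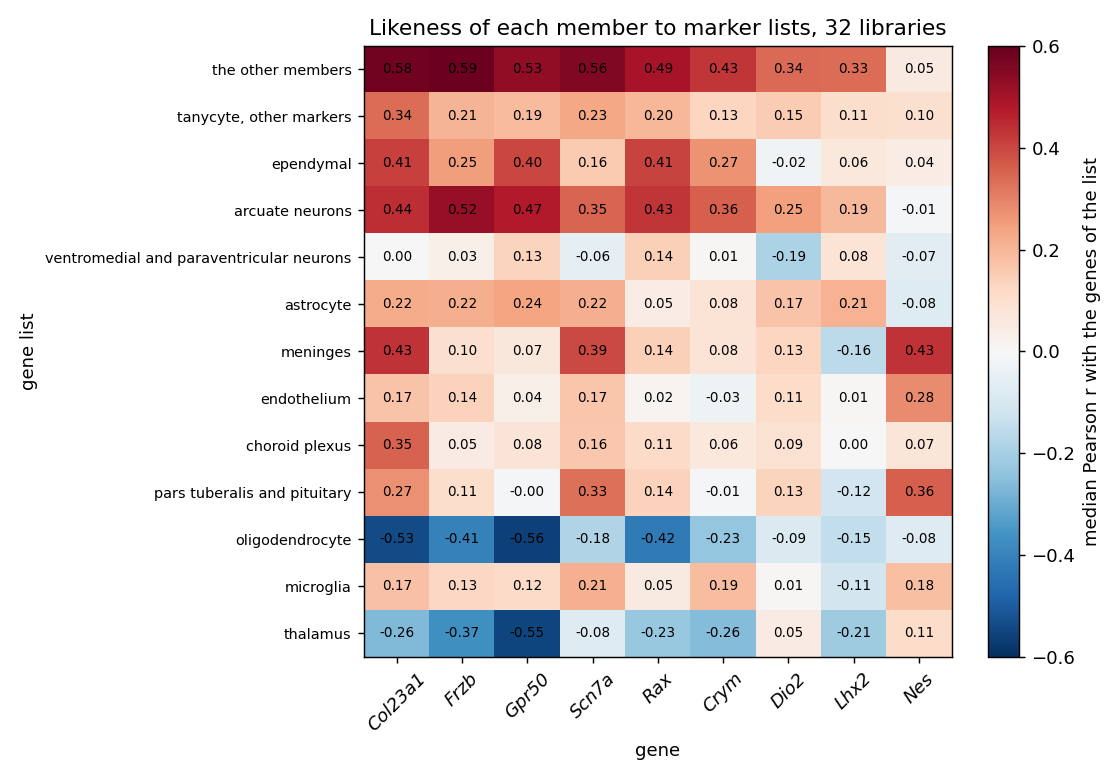
Median Pearson r of each marker (columns) with the genes of each list (rows), from deviations over 32 libraries; a marker is left out of its own comparison. Red is positive and blue negative. Arcuate genes reach 0.52 with Frzb, thalamic genes fall to -0.55 with Gpr50, and Nes has its highest value, 0.43, with the meninges.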

How the data were processed

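RNA from the hypothalamus of 32 mice was sequenced as stranded paired-end libraries. Per the submitters' processing notes, the authors used STAR 2.7.6a and DESeq2 1.28.1 with R 4.0.2 on GRCm38, and trimming and quality tools (FastQC, cutadapt 2.10, Trim Galore 0.6.2). Which program counted reads, whether by strand, and with which annotation is not given in the sources used here. Values deposited by the authors are log2 of read counts divided by a size factor of the library, and 0 reads appear as the log2 of 0.1. Reversing the logarithm gave whole reads for 100% of values, within a tolerance of 1e-06 reads. Of 55401 identifiers, 55141 were paired with a symbol by a GRCm38 annotation and 260 were not.

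The tests used limma 3.58.1 (R 4.3.3, robust moderation through statmod 1.5.0) on log2(normalized count + 1), with an intensity trend, all 4 groups in 1 fit, a normalized count of at least 10 in at least 7 libraries (19928 genes) and Benjamini-Hochberg adjustment at 0.05 over all genes tested, two-sided. The pseudocount of 1 makes fold changes of low genes smaller. Because the deposited unit is log2, voom weights on the recovered reads were an alternative and not the main test. The code was tried on simulated counts of independent genes that all had the same spread. That spread was not taken from the members, so the trial does not show how often differences of their size would be found. Pearson and Spearman correlations used deviations from group means and 100000 permutations within groups, adjusted over 36 pairs, in Python 3.11.15 with numpy 2.4.6. Per-kilobase levels divide normalized counts by the length of all exons.

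Every member is named in every comparison, 14 further lists are given by counts, medians and the genes of smallest p, and the 3 genes most like each member are named; genes of lower rank were chosen after their values were seen. The members and the lists were chosen with earlier results of these data known. Start windows are those of RefSeq on GRCm38.p6, while gene positions and exon lengths are those of a GENCODE annotation of GRCm38. These sources differ for some members. The window of Dio2 (chr12:90738989-90739288) lies wholly outside the gene position given above, and most of the window of Frzb lies inside its gene position. Windows of 7 of the 9 members were used, and none of Rax or Crym. Alternatives were the pseudocount, the filter, the scaling, age, blocks and the omission of libraries. Coefficients of variation from counting cover counting error only, since reads carry no molecular identifiers. Same-numbered mice of different groups had a median r of 0.01 over 45 pairs, with 17.8% of pairs above 0.1, against 0.00 and 11.8% over 338 other pairs. The labels tie no number to a litter or batch and not every pair passed 0.1, so the numbers were not treated as pairs.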

Additional observations from a re-analysis of the deposited data

Results flagged for a closer look

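Crym in WT_HFD replicate 8 stood at 282 normalized counts, far from the other 7 mice of its group, with a gap of 0.713 of the range of the group. The same library was above the mean of its group in 9 of 9 markers, with a mean deviation of 0.21 on the log2 scale. In all, 36 sets of values (9 markers in 4 groups) were looked at in this way, and chance alone sets about 1 in 20 apart, or 1.8 of 36. Its cause was not tested.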

How the results depend on the processing

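Across 43 settings, 0 of 9 markers were called in any comparison, and the lowest adjusted p was 0.320 (limma, Rax, diet averaged over genotypes). These settings were other pseudocounts, filters and scaling, voom, age as a covariate, single ages, only the groups compared, and the omission of each library. With a replicate block 0 markers were called as well, and of the 45 same-numbered pairs of mice 8 had a correlation above 0.1, against 40 of 338 other pairs. Of 2574 recomputed marker values, 89 small ones changed sign, such as Rax for genotype on control diet, which ran from -0.18 to 0.08 over omitted libraries.

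The count of covarying pairs was 18 over 32 libraries, 14 to 21 when each library was left out, 8 in control-diet and 9 in high-fat-diet libraries alone, and 0 in 149-day and 7 in 150-day mice alone; the subsets hold fewer samples. In the 149-day mice the lowest adjusted p was 0.0916, and 31 of 36 pairs still had r above 0. Outside these 4 subsets 13 pairs passed under every setting tried. The age subsets, the omission of each library from the pairs, and removal of means of sets of 8 label numbers (19 pairs) were chosen after seeing the data. Without removal of group means, and with scaling by total reads, 20 pairs passed. Depth limits Rax most, at 22 to 104 reads per library.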

Other observations

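Frzb is a Wnt antagonist, and the other Wnt antagonists and receptors were read beside it. All 16 listed were tested and 0 were called in any of the 7 comparisons by limma or voom, with 4 at an unadjusted p below 0.05 by either for diet averaged over genotypes. Over all genes tested, 14.1% had an unadjusted limma p at or below 0.0696 in that comparison. This cut is wider than the 0.05 of the list, so the share of all genes below 0.05 is no higher. For diet averaged over genotypes 13 of 16 log2 fold changes lay above 0, with a median of 0.04. The smallest p-values were those of the receptors Fzd7, at 0.32 (SE 0.09, limma adjusted p = 0.140), and Fzd1, at 0.14 (SE 0.04, limma adjusted p = 0.182). Meningeal genes also lay above 0 in 14 of 14 cases in that comparison, with a median of 0.52, and their part in the Wnt values was not tested. Of the listed genes, the receptor Fzd5 varied most closely with every tanycyte marker but Nes. It had r = 0.88 with Col23a1, 0.80 with Scn7a, 0.80 with Frzb, 0.77 with Gpr50, 0.73 with Rax, 0.59 with Dio2, 0.48 with Crym and 0.47 with Lhx2. For Nes the closest listed gene was Fzd2 (r = 0.53).

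Among the genes of the lists, 3 were called by limma, all for diet averaged over genotypes and all higher on high-fat diet. Cartpt, the third nearest gene of Crym, stood at 0.32 on the log2 scale (SE 0.05, limma adjusted p = 0.00139). Avp, which encodes vasopressin, stood at 0.34 (SE 0.08, adjusted p = 0.0477) and did not pass with voom, and Ctss, a lysosomal protease of microglia, at 0.14 (SE 0.03, adjusted p = 0.00998). Crym itself stood at 0.05 (SE 0.10, adjusted p = 0.883) in the same comparison.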
